A study of Mus musculus with 8 samples.

Results

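Some binding sites of the transcription factor SOX10 lay close together along the mouse genome, in runs of 3 or more. These grouped sites numbered 289 of the 4159 SOX10 sites found in both SOX10 libraries, or 6.95%, and formed 86 groups. A site is a stretch where SOX10 peaks of both libraries overlapped by at least 1 bp. Its summit is that of its member peak with most tags. Sites were linked where neighbouring summits lay at most 25 kb apart, and every linked run of at least 3 sites was kept as a group. The sites were thus chosen by the positions of the SOX10 peaks, so the number, spacing and span of the groups are given as descriptions. The rule did not use fold enrichment or the histone marks, and it used tag counts only to choose the summit of a site. The remaining sites were 816 sites in 408 pairs and 3054 solitary sites with no other site within 25 kb.

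The sites come from peak lists of ChIP-seq (chromatin immunoprecipitation with sequencing), in which DNA recovered with an antibody is sequenced and peaks are places with more tags than an input library. The antibodies were against SOX10, H3K27ac and H3K27me3, each with 2 replicate libraries, and 2 input libraries served as background. Every library came from melan-Ink4a-Arf-1, also called melan-a, a single line of immortalised melanocytes from embryonic mouse skin of Cdkn2a tm1RDp/tm1RDp genotype. All cells, inputs included, carried this mutation and grew with 10% serum, 200 nM of the phorbol ester TPA and 200 pM of cholera toxin before 10 min of crosslinking. The lists therefore hold no untreated or Cdkn2a wild-type cells, and no other line. Peak lists give no expression, so the melanocyte label was not checked against marker genes.

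SOX10 is a transcription factor of the SOX family that binds DNA through an HMG domain. It is made in the neural crest and is needed for the development and upkeep of melanocytes, where it acts on pigment and lineage genes together with other factors. Enhancers and promoters in use carry acetylated lysine 27 of histone H3, H3K27ac. The trimethylated form of the same lysine, H3K27me3, is deposited by Polycomb repressive complex 2 at silenced genes. Genes with strong cell-type expression often have several enhancers within a short stretch, and the binding of lineage factors in such stretches is one of their known features. Positions below are in the mm9 build, and no gene is named, because no annotation of that build was used here.

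The SOX10 lists were the shallowest, with 6440395 and 8985699 tags kept after duplicate removal in replicates 1 and 2. The histone mark libraries kept between 44416913 and 71987481 tags. The values of a peak, its tags, fold and p, are those of the authors' peak caller. Fold is the enrichment at the summit over the input background. Replicates were independent experiments per the labels, but 2 libraries against 2 could not reach a p of 0.05 in an exact permutation test, and sites of 1 group share a locus. The comparisons below therefore rest on values in each library and on counts with 95% Wilson intervals. These intervals cover counting error only, and they treat sites as independent, which linked sites are not.

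Most groups were small. Of the 86 groups, 61 had 3 sites, 20 had 4, 4 had 5 and 1 had 6. The distance between the outer summits, the span, ran from 4.23 to 62.3 kb with a median of 26.3 kb (quartiles 15.6 and 34.0 kb), and the spans added up to 2.30 Mb. The 203 gaps between neighbouring summits of a group ran from 1.12 to 24.9 kb, with a median of 10.5 kb. Of these gaps 9 were at most 2 kb, 47 were 2 to 5 kb, 42 were 5 to 10 kb and 105 were 10 to 25 kb. These bins differ in width, and the median gap lay below the middle of the allowed range. Of the 61 groups of 3, 16 held a gap over 20 kb. Just inside the rule, a group on chromosome 1 with summits at 79772699, 79774855 and 79799804 had a gap of 24949 bp. Its folds were 12.1, 9.37 and 17.1 in replicate 1 and 8.37, 17.8 and 17.0 in replicate 2, and its first and second sites lay at H3K27ac. Just outside, a set on chromosome 1 with summits at 38452169, 38458840 and 38483857 missed the rule with a gap of 25017 bp. Its folds were 7.76, 48.9 and 11.8 in replicate 1 and 14.1, 36.9 and 14.2 in replicate 2, and all 3 of its sites lay at H3K27ac. In all, 27 such sets would have joined with a gap of 25 to 30 kb. With the sites held fixed, all 289 grouped sites remained grouped with the summits of either library. In total 289 and 292 sites were grouped with the summits of replicates 1 and 2. Little change was possible here, as the summits of both libraries lay a median of 53 bp apart at grouped sites. Membership did depend on the libraries: with the peaks of replicate 1 alone 802 sites were grouped, and with those of replicate 2 alone 1890.

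Groups were found on 17 of the 20 chromosomes that carried at least 3 SOX10 sites. Chromosome 18 had the highest share of grouped sites, 25 of 186 or 13.4% (9.27 to 19.1%), in 8 groups. Chromosome 14 followed with 10.9%, chromosome 3 with 10.3% and chromosome 13 with 10.2%, all within the interval of chromosome 18. The most grouped sites, 28 in 8 groups, lay on chromosome 2. No group lay on chromosome 12, with 173 sites, chromosome 17, with 133, or chromosome X, with 43. Chromosome 6 had many sites, 276, but 10 grouped ones, or 3.62% (1.98 to 6.54%). Its sites had the highest median input background of any chromosome, 2.22 times the genome-wide level in both libraries, against 1.58 over all sites. The part of this background in the counts was not tested.

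The fold enrichment of SOX10 differed little between grouped and other sites. The median fold at grouped sites was 11.3 in replicate 1 and 11.0 in replicate 2, against 10.9 and 11.0 at the 3870 sites outside groups. On the log2 scale the medians differed by 0.05 in replicate 1 and by 0.00 in replicate 2, so the difference was no larger than its own change between libraries. The quartiles in replicate 1 were 8.34 and 15.5 at grouped sites and 8.32 and 14.5 at other sites. Grouped sites held somewhat more tags, a median of 27 and 39 in replicates 1 and 2, against 24 and 36 at other sites. They were also slightly wider, 1200 against 1146 bp in the median. The peak caller's -log10 p, multiplied by 10, had a median of 92.0 and 116 at grouped sites, against 84.4 and 112 at other sites. Grouped sites were spread over all strengths: they made up 8.89% of the strongest 10% of sites by mean fold and 6.27% of the weakest 10%. Of the 10 strongest sites 2 were grouped, of the 50 strongest 4 and of the 100 strongest 11. Groups of 3, 4, 5 and 6 sites had median folds of 11.4, 11.1, 11.6 and 11.2 in replicate 1 and 11.2, 10.8, 11.5 and 9.95 in replicate 2, in no order of size.

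**Figure D1:**
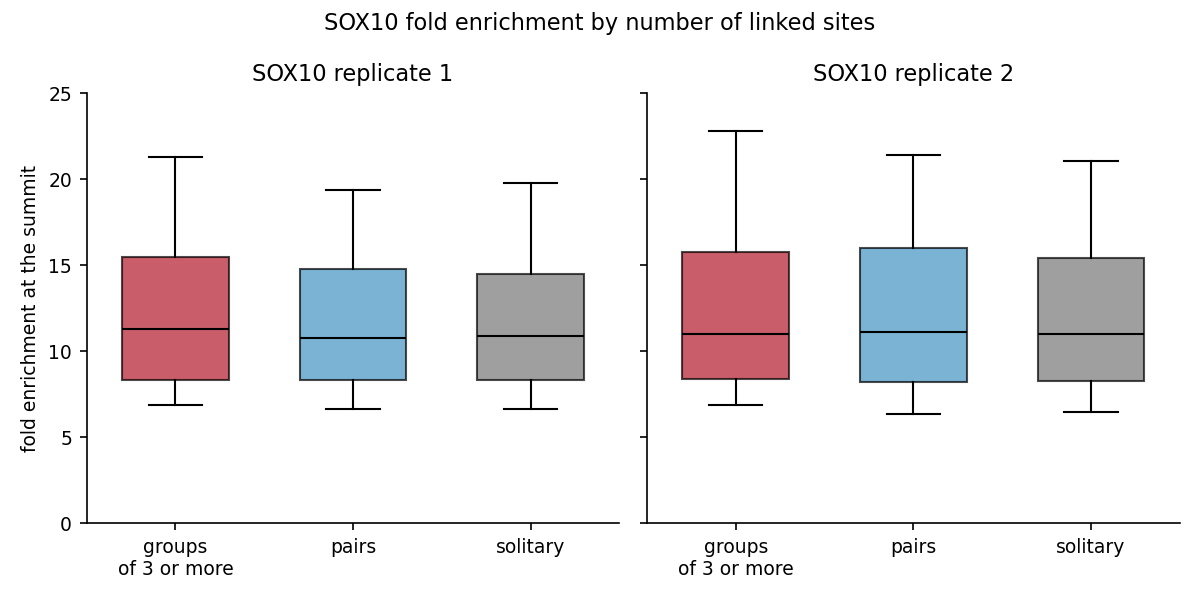
Fold enrichment of SOX10 at the summit (y axis) in each SOX10 replicate for sites in groups of 3 or more (n = 289), sites in pairs (n = 816) and solitary sites (n = 3054). Lines are medians, boxes the quartiles and whiskers the 10th and 90th percentiles over sites; the medians lie between 10.8 and 11.3 in every box.

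Within a group, strong and weak sites stood side by side. The strongest site of a group had a median of 1.99 times the fold of the weakest in replicate 1 (range over groups 1.05 to 8.22) and 2.13 times in replicate 2 (1.13 to 9.23). The SD of log2 fold among sites of the same group was 0.60 in replicate 1 and 0.67 in replicate 2, against 0.65 and 0.72 over all grouped sites, so sites of a group were scarcely more alike than grouped sites at large. In pairs the SD within a pair was 0.61 and 0.65. The same site was the strongest in both libraries in 55 of 86 groups, 64.0%, including 39 of the 61 groups of 3 and 12 of the 20 groups of 4. Across grouped sites the log2 folds of both libraries correlated with r = 0.781, against 0.714 across other sites, as a description over 289 and 3870 sites that share their libraries. Inner and outer sites of a group had similar folds. The 117 inner sites had median folds of 11.6 and 11.1 in replicates 1 and 2, against 11.3 and 11.0 at the 172 outer sites. The strongest site was an inner one in 35 groups in replicate 1 and in 37 in replicate 2.

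Grouped sites lay at acetylated chromatin more often than other SOX10 sites. An H3K27ac region found in both H3K27ac libraries overlapped 207 of 289 grouped sites, 71.6% (66.2 to 76.5%), where the share over all 4159 sites was 53.2%. In pairs it was 529 of 816, 64.8% (61.5 to 68.0%), and among solitary sites 1476 of 3054, 48.3% (46.6 to 50.1%). The share was also taken for each of the 4 combinations of a SOX10 with an H3K27ac library, with the SOX10 peaks of that library. It was 74.4 ± 1.26% for grouped sites, 68.9 ± 1.06% for pairs and 53.9 ± 2.16% for solitary sites (mean and SD over 4 combinations, which share libraries). The ranges, 73.0 to 75.5%, 67.6 to 70.1% and 51.2 to 56.5%, did not overlap. The step from pairs to groups was smaller than that from solitary sites to pairs, and the Wilson intervals of groups and pairs overlapped. Beyond 3 sites the share did not climb: it was 72.7%, 71.2%, 65.0% and 66.7% for groups of 3, 4, 5 and 6 sites, the last resting on 6 sites. The summit itself lay inside an H3K27ac region at 56 grouped sites, 19.4% (15.2 to 24.3%), against 625 other sites, 16.1% (15.0 to 17.3%), and 16.4% of all sites. By this stricter measure the intervals overlapped. At marked sites the H3K27ac fold had a median of 10.5 and 10.3 in H3K27ac replicates 1 and 2 for grouped sites, 10.3 and 10.1 for pairs, and 9.68 and 9.76 for solitary sites.

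**Figure D2:**
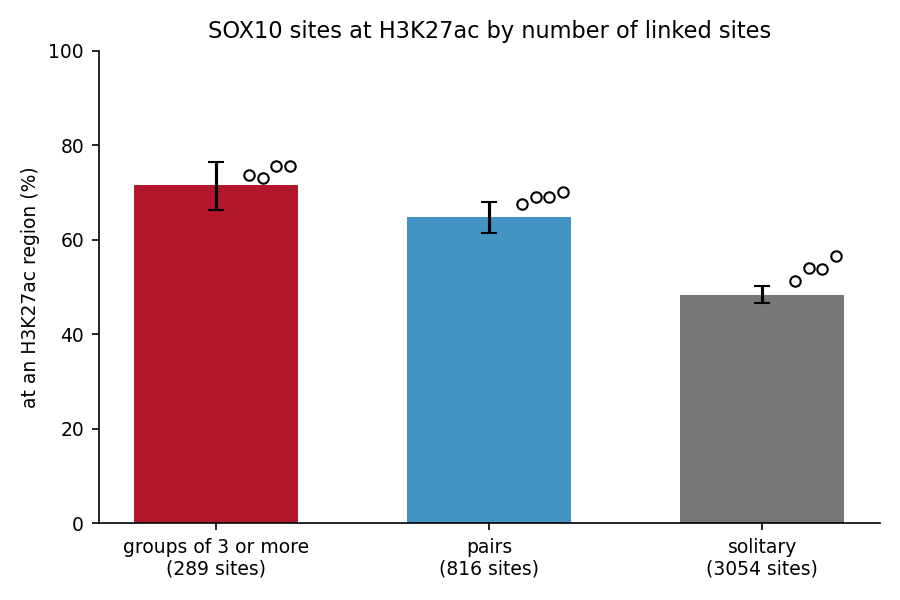
Share of SOX10 sites that overlapped an H3K27ac region of both libraries (bars, y axis in percent, with 95% Wilson intervals) for sites in groups of 3 or more, in pairs and solitary. Open points are the 4 combinations of a SOX10 with an H3K27ac library; they lie at 73.0 to 75.5% for groups, 67.6 to 70.1% for pairs and 51.2 to 56.5% for solitary sites.

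The input background moved with acetylation. The input level, the background behind a peak's p as a multiple of the genome-wide level, had a median of 1.74 in both libraries at marked grouped sites, against 1.28 and 1.27 at unmarked ones. Over all grouped sites the median was 1.58 in both libraries, the same as at other sites. The level was at the genome-wide floor in both libraries at 27 grouped sites, 9.34% (6.50 to 13.3%), against 621 other sites, 16.0% (14.9 to 17.2%). The part of the input level in the higher share at H3K27ac was not tested. Marked grouped sites had median folds of 11.2 and 11.6, and unmarked grouped sites 11.4 and 10.3. Outside groups the marked sites had lower folds in both libraries, 9.97 and 10.2, against 11.9 and 12.0 at unmarked sites. Tags went the other way outside groups, with medians of 31 and 47 at marked and 19 and 28 at unmarked sites. The input level there was 2.03 and 2.06 at marked sites, against 1.24 and 1.27 at unmarked ones. Marked grouped sites also held more tags, 30 and 47, against 18.5 and 27 at unmarked grouped sites. They were wider too, 1280 against 1046 bp in the median, and the part of width in the overlap with H3K27ac was not tested. A site that was strongest in both libraries lay at H3K27ac in 46 of 55 groups, 83.6%, against 71.6% of all grouped sites, which include these. No interval was taken for the share of 83.6%. Inner sites lay at H3K27ac in 74.4% of cases (65.8 to 81.4%) and outer sites in 69.8% (62.5 to 76.1%), with overlapping intervals.

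In most groups some, but not all, sites lay at H3K27ac. All sites lay at H3K27ac in 35 groups, 40.7%, some did in 47 groups, 54.7%, and none in 4 groups, 4.65%. Of the 408 pairs, both sites were marked in 51.5%, 1 in 26.7% and neither in 21.8%. Sets with more sites are more readily mixed at the same share per site, so the shares of groups and pairs are not comparable. Of the 203 neighbouring sites within groups, both were marked in 113 cases, 1 in 68 and neither in 22. Within groups both were marked most often at gaps of 2 to 5 kb, in 72.3% of 47 cases. The share was 45.2% of 42 at 5 to 10 kb and 51.4% of 105 at 10 to 25 kb. Over all neighbouring SOX10 sites, those of groups included, it was 62.0%, 49.6% and 50.8% at the same gaps, so the peak at 2 to 5 kb was not particular to groups. Below 2 kb both were marked in 6 of 9 cases within groups and neither in 3, against 52.6% and 36.8% of all 38 such neighbours. Of the 82 unmarked grouped sites, 56, or 68.3% (57.6 to 77.4%), had an H3K27ac region within 10 kb. Unmarked sites in pairs lay in between, with 47.0% (41.3 to 52.8%), and unmarked solitary sites had 28.1% (25.9 to 30.3%). By the linking rule, grouped and paired sites have another SOX10 site within 25 kb, and solitary sites have none. The part of the rule in these shares was not tested.

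**Figure D3:**
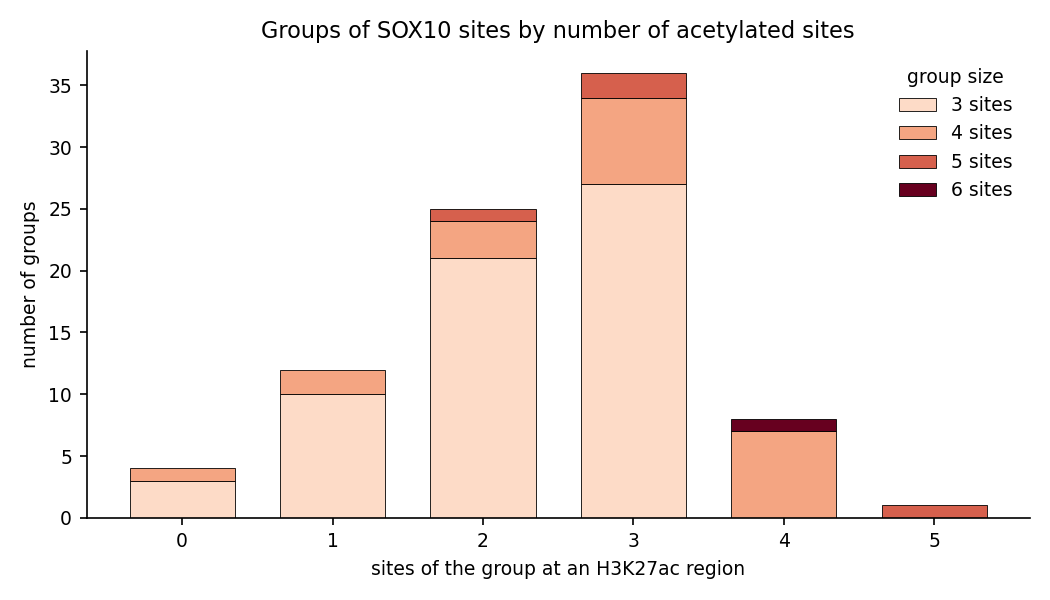
Number of groups (y axis) by how many of their SOX10 sites overlapped an H3K27ac region (x axis), coloured by group size. Of 86 groups, 4 had no marked site, and 27 of the 61 groups of 3 had all sites marked.

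H3K27ac regions were numerous inside the groups, yet most of the sequence lay outside them. The spans had a median H3K27ac coverage of 23.2% (quartiles 9.61 and 40.0%, range 0.00 to 95.6%), and 15 groups were covered over 50%. A span held a median of 7 called H3K27ac regions, and 34 at most. Some called regions nearly touched. In a group on chromosome 8 a region ended 8.75 kb from the first summit and the next began at 8.753 kb. The counts are thus of called regions and not of distinct acetylated stretches. Summed over all spans, those of groups were covered to 23.8% and those of pairs to 22.6%. In the first 5 kb outside the outer summits coverage was 24.3% at groups, 21.6% at pairs and 13.6% at solitary sites. It then dropped to 10.2%, 8.27% and 4.73% at 5 to 10 kb, and at 50 to 100 kb was 3.54%, 3.66% and 2.66%. Each H3K27ac library alone gave the same order inside 25 kb.

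**Figure D4:**
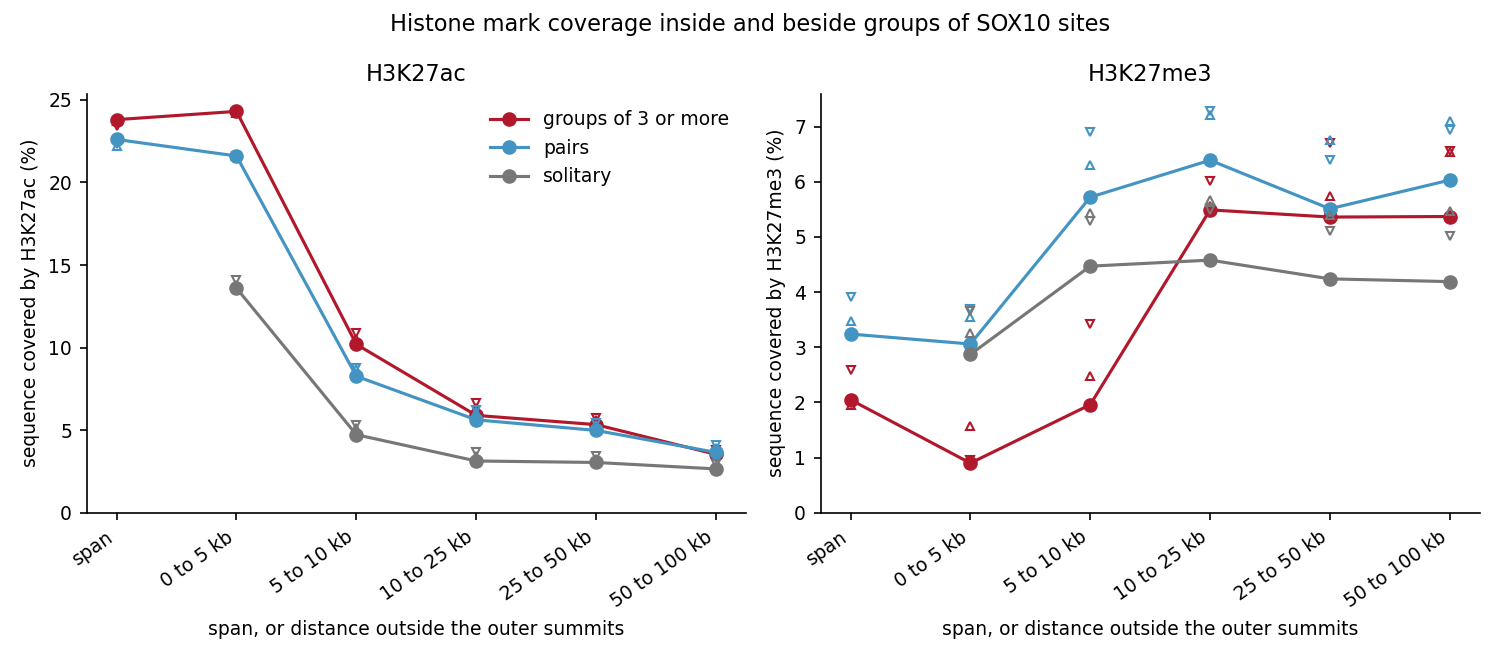
Percentage of sequence covered by H3K27ac (left) and H3K27me3 (right) regions in the span of the groups and pairs and at increasing distance in kb outside their outer summits, for groups of 3 or more, pairs and solitary sites (which have no span). Filled points joined by lines are regions of both libraries, open triangles each mark library alone; H3K27ac falls from 24.3% to 3.54% outward from groups, and H3K27me3 beside groups is lowest, 0.901%, in the first 5 kb.

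H3K27me3 was rare at SOX10 sites in and out of groups, and within 10 kb it was rarer beside grouped sites than beside other sites. It overlapped 4 grouped sites, 1.38% (0.540 to 3.50%), where the share of all sites was 1.32%. Of these 4 sites, 3 were the members of 1 group on chromosome 2 with an extreme input level, described below. An H3K27me3 region lay within 10 kb of the summit at 28 grouped sites, 9.69% (6.79 to 13.6%), from 17 groups, against 777 other sites, 20.1% (18.8 to 21.4%). Pairs and solitary sites each had 20.1%. With the regions of each H3K27me3 library alone the shares were 15.6% and 19.4% for grouped sites, against 33.2% and 33.2% for other sites. The difference was also present among sites at H3K27ac, with 6.28% (3.71 to 10.4%) of grouped and 15.6% (14.0 to 17.2%) of other sites. Among sites not at H3K27ac the shares were 18.3% (11.4 to 28.0%) and 24.9% (23.0 to 26.9%), with overlapping intervals. Within 50 kb the intervals overlapped, with shares of 50.2% (44.4 to 55.9%) for grouped and 52.0% (50.5 to 53.6%) for other sites. Coverage followed the same course. In the first 5 kb outside the outer summits H3K27me3 covered 0.901% at groups, 3.06% at pairs and 2.87% at solitary sites, and at 10 to 25 kb 5.49%, 6.39% and 4.58%. Of the 86 spans, 7 held any H3K27me3.

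The largest group, with 6 sites, spanned chr2:90315140-90377470 and held 34 H3K27ac regions that covered 40.1% of it. Its folds, from left to right, were 9.89, 9.15, 9.84, 14.8, 12.5 and 18.3 in replicate 1 and 6.27, 12.7, 8.63, 11.3, 6.33 and 19.5 in replicate 2. The last site was the strongest in both libraries, and the order of the others differed. Its first and the fourth site lay outside H3K27ac regions, and the other 4 lay at H3K27ac. None of its sites ranked among the 100 strongest, the best being at rank 498.

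The 4 groups of 5 sites differed in strength and in marking. The group at chr11:70642660-70704400 had all 5 sites at H3K27ac. Its first site had folds of 49.2 and 47.0 in replicates 1 and 2, the sixth highest mean of all sites. The other 4 ran from 7.45 to 13.1 in replicate 1 and from 7.60 to 12.1 in replicate 2. The group at chr4:99142850-99189973 had every fold above the medians of grouped sites, with folds of 12.1, 21.9, 15.7, 13.2 and 13.1 in replicate 1 and 15.0, 31.5, 15.5, 21.1 and 26.2 in replicate 2. Its second site was the strongest in both libraries, and all but its first and the fourth lay at H3K27ac. The group at chr3:51287905-51314411 had acetylation at its outer sites only. Its 3 inner sites lay 1.28 to 2.42 kb from the nearest H3K27ac region, and the fourth, with 19.2 in replicate 1 and 10.3 in replicate 2, was strongest in replicate 1 alone. The group at chr13:23611604-23673776 was weak, with folds of 7.13 to 11.7 in replicate 1 and 6.06 to 12.4 in replicate 2. H3K27ac covered 6.71% of its span, and 3 of its 5 sites overlapped it.

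**Figure D5:**
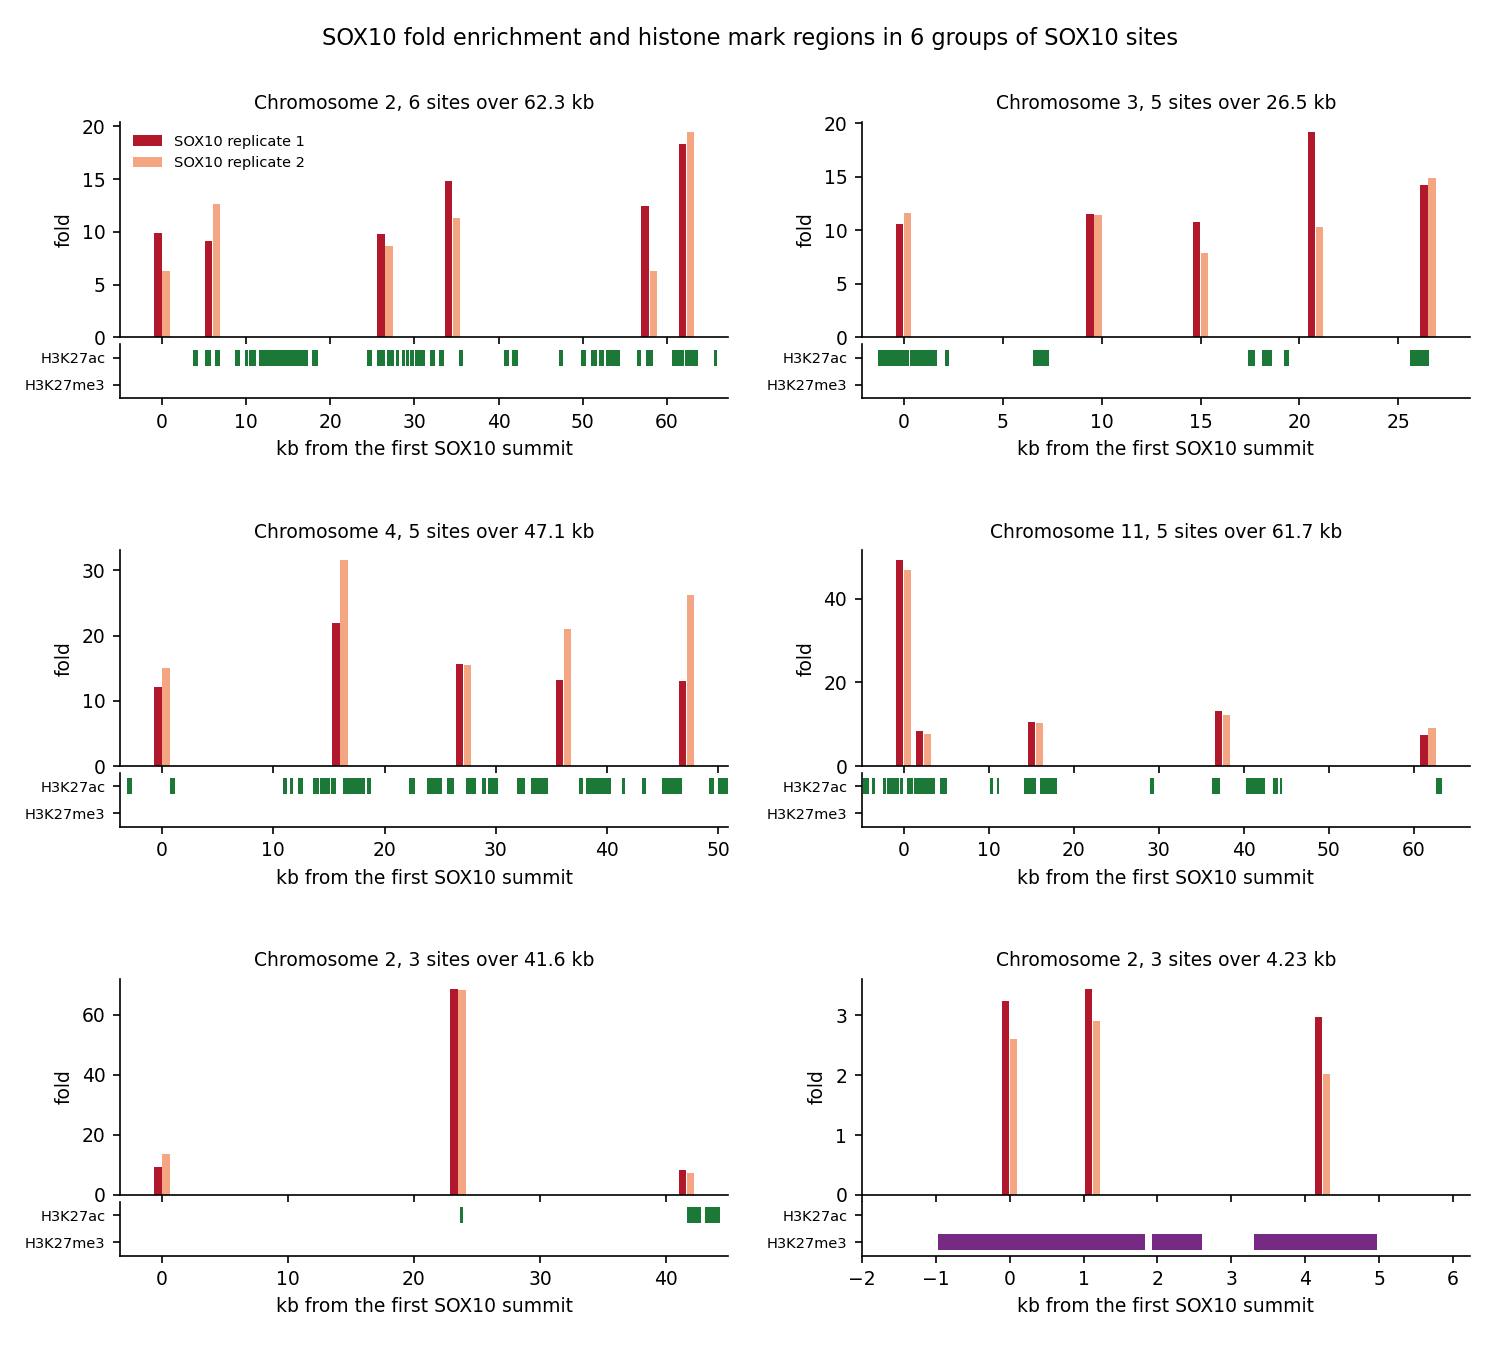
SOX10 fold enrichment (y axis) of each site in replicates 1 and 2 against its distance in kb from the first summit of the group, with regions of H3K27ac and H3K27me3 found in both libraries drawn below, for 6 groups. The last 2 panels show the group with the strongest site of all, 68.4 and 68.2, and the group with a high input level, whose folds are 2.02 to 3.44 and which alone among the 6 has H3K27me3.

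Of the 5 shortest groups of 4, 2 were fully acetylated. In the group at chr14:120673789-120697216 the folds were 41.2, 8.32, 25.2 and 12.7 in replicate 1 and 41.0, 6.96, 19.1 and 15.0 in replicate 2. The order of all 4 sites was the same in both libraries, and the first ranked 14th of all sites. The group at chr4:88659136-88686906, also marked at all 4 sites, had its second site strongest, with 19.4 and 16.9. The groups at chr6:51925895-51949007 and chr3:127540576-127571429 each had 3 of 4 sites marked, and their folds lay between 6.66 and 14.6 in replicate 1 and between 7.91 and 18.1 in replicate 2. The group at chr13:23524683-23545373 had 2 of 4 marked and folds of 7.01 to 11.3 in replicate 1 and 5.33 to 8.56 in replicate 2. It ended 66.2 kb before the weak group of 5 on the same chromosome.

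The group with the strongest SOX10 site of the whole list spanned chr2:29338647-29380270. That site, at chr2:29361522-29362762, had folds of 68.4 and 68.2, with 80 and 114 tags. Its neighbours, 23.5 and 18.1 kb away, had 9.36 and 8.32 in replicate 1 and 13.5 and 7.39 in replicate 2, so 1 site far above the rest stood between ordinary ones. A single H3K27ac region lay inside the span, covering 0.524% of it, with an H3K27ac fold of 8.02 at the strongest site. The right neighbour also overlapped H3K27ac, outside the span, and the left one lay 23.7 kb from it.

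Among the 5 groups with the shortest spans, 4 had sites at H3K27ac. The group at chr14:37782070-37786298 packed 3 marked sites into 4.23 kb, of which H3K27ac covered 72.2%. Its middle site had folds of 22.5 and 15.2, and the outer ones 8.34 and 11.9 in replicate 1 and 10.4 and 15.0 in replicate 2. The groups at chr8:35868154-35874459 and chr3:95813760-95821106 were marked at all sites and covered to 91.5% and 92.6%. On chromosome 8 the folds were 13.1, 6.57 and 6.44 in replicate 1 and 11.7, 8.86 and 13.3 in replicate 2, and the median input level was 3.09. On chromosome 3 they were 9.13, 18.5 and 28.8 in replicate 1 and 8.39, 24.6 and 20.03 in replicate 2, so the first site was the weakest in both libraries. The group at chr14:70603445-70611551 had 2 of 3 sites marked and a median input level of 4.05.

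The remaining short group, at chr2:98502932-98507162, stood apart from all others. Its 3 sites had 640, 316 and 683 tags in replicate 1 and 668, 379 and 744 in replicate 2, yet folds of 3.25, 3.44 and 2.98 and of 2.60, 2.90 and 2.02. The input level under them was 69.8 to 101 in replicate 1 and 71.5 to 99.1 in replicate 2. Levels over 10 occurred at 9 of all sites, 0.216%, and at 3 grouped sites, 1.04% (0.354 to 3.01%), all of them here. H3K27me3 covered 81.6% of the span and overlapped all 3 sites, and the nearest H3K27ac region lay over 3 Mb away. The H3K27me3 regions here had folds of 73.0, 44.9 and 54.4, against 4.70 to 7.87 in and beside the other groups described. The H3K27me3 calls used no local background, and the part of the high input in these regions was not tested. Without sites of such input the grouped share at H3K27me3 was 0.350%, against 1.19% of other sites, and the share at H3K27ac was 72.4%, against 51.9%.

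The other groups with no site at H3K27ac, and the other group with a site at H3K27me3, were singled out after their values were seen. The group of 4 at chr3:101907928-101953126 lay 21.2 to 66.4 kb from the nearest H3K27ac region. Its folds were 13.2, 12.1, 13.9 and 9.25 in replicate 1 and 10.0, 8.22, 16.9 and 15.3 in replicate 2, within the range of most grouped sites. The group of 3 at chr18:47450144-47468092 lay 58.7 to 76.7 kb from H3K27ac, with folds of 11.4, 13.2 and 14.5 in replicate 1 and 19.9, 9.13 and 8.02 in replicate 2. At chr6:12382478-12410900 the first site was strong, 24.97 and 31.65. H3K27me3 covered 33.2% of that span and overlapped none of its sites, and H3K27ac lay at least 1.20 kb away from each. The group at chr9:61191385-61220056 carried both marks, with H3K27me3 over 63.3% of its span and at its first site, and H3K27ac over 8.61% and at its last. Input levels in these 4 groups had medians between 1.10 and 1.90.

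Few groups were made of strong sites alone. In both libraries a -log10 p, multiplied by 10, of at least 100 was reached by 102 grouped sites, 35.3%, against 1148 other sites, 29.7%. All sites of a group reached it in 2 groups, some in 64 and none in 20. When the sites were restricted to peaks of that strength before linking, 16 sites in 5 groups were left, with 87.5% at H3K27ac, against 61.4% of the other sites. Peaks found in 1 SOX10 library alone also fell within the spans, 12 of the 2218 of replicate 1 and 40 of the 5424 of replicate 2. This was 5.22 and 17.4 per Mb in the spans of groups, against 5.69 and 10.1 per Mb in the spans of pairs and 1.73 and 4.69 per Mb at 50 to 100 kb from solitary sites. Such peaks lay in the spans of 12 groups in replicate 1 and 31 in replicate 2, the library with more kept tags.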

How the data were processed

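Peak lists of 6 ChIP libraries were used, with antibody and replicate taken from the titles. The 2 inputs enter as the background of the calls. Peaks were called in each library with MACS 1.4.2 at a p cutoff of 1e-05 with at most 1 tag per position, per the file headers. The submitters' processing notes give mm9 as the build, and for the aligner the sources used here give no name. The deposited tag counts are whole and not normalised. The p-values are deposited as -log10 times 10. Fold enrichment is a deposited ratio, ChIP tags over background. The FDR the authors give is a percent. The H3K27me3 calls used no local background, per the file headers.

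Regions with peaks of both libraries sharing at least 1 bp were kept, and a SOX10 site overlapped a mark if it shared at least 1 bp with such a region. The input level is the Poisson mean at which a peak's tags give its p, over the genome-wide level. Groups described singly were the 10 with the most sites, the 5 with the shortest span, those holding 1 of the 10 strongest sites, and those with 2 or more sites at H3K27me3. The sites and all rules were chosen with earlier results of these data known. Scripts were tested on simulated data and ran in Python 3.11.15 with numpy 2.4.6, pandas 2.3.3, scipy 1.17.1 and matplotlib 3.10.9. Alternatives varied linking distance, group size, peak thresholds, overlap rules and libraries. Gene neighbours and sequence motifs were not analysed here, for want of a genome or annotation of the mm9 build.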

Additional observations from a re-analysis of the deposited data

How the results depend on the processing

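The share of grouped sites at H3K27ac was above that of the other sites in 15 of 15 settings, by 3.30 to 29.7 percentage points. The share with H3K27me3 within 10 kb was below that of the other sites in 4 of 4, by 9.50 to 17.6 points. These 4 settings left out either H3K27me3 library, chromosome 6 or the sites of high input level. The share within 10 kb was not taken under other linking distances, group sizes, SOX10 peak thresholds or SOX10 libraries. No paired analysis was possible because the results come from no test across samples. Linking at 10 kb gave 74 sites in 24 groups, 4.05% at H3K27me3 and a median log2 fold difference of -0.15. Linking at 50 kb gave 685 sites in 196 groups and 0.876% at H3K27me3. Groups of 4 or more held 106 sites in 25 groups, 69.8% at H3K27ac and 0.00% at H3K27me3. With SOX10 peaks at a -log10 p, multiplied by 10, of at least 100, 16 sites in 5 groups remained, 87.5% at H3K27ac and 0.00% at H3K27me3, with a log2 fold difference of 0.18. With an FDR of at most 1% it was 15 sites in 5 groups, 86.7% and 0.00%, with a difference of -0.11. Leaving out a SOX10 library gave 802 to 1890 sites in 230 to 515 groups and 1.06 to 1.62% at H3K27me3. Leaving out a SOX10 or H3K27ac library gave 61.1 to 76.8% at H3K27ac. Leaving out an H3K27me3 library gave 1.38 to 1.73% at H3K27me3 and 15.6 to 19.4% with H3K27me3 within 10 kb. Summits inside the mark gave 19.4% for H3K27ac and 1.04% for H3K27me3, and H3K27ac peaks at 100 or more gave 56.4%. With -log10 p in place of fold the log2 difference was 0.09. Without sites of input level over 10, added after seeing the data, 0.350% lay at H3K27me3. The other 26 values stayed within 1 SD between libraries or 1.5 times the count. The cause of these changes was not tested, save that stricter peaks and longer runs leave fewer sites to link. Grouped sites held a median of 27 and 39 tags in SOX10 replicates 1 and 2, and the part of depth in which sites both libraries share was not tested.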
